A study of Mus musculus with 13 samples.

Results

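The nuclear genes of the oxidative phosphorylation system were chosen by symbol: protein-coding genes named Nduf, Sdha to Sdhd, Uqcr, Cox followed by a digit, or Atp5. The rule took 105 of the 21887 protein-coding genes on chromosomes 1 to 19, X and Y, and used no binding data. By name, 49 belong to complex I, 4 to complex II, 8 to complex III, 27 to complex IV and 17 to complex V. By role, 78 are subunits, 17 are assembly factors and 10 are tissue-restricted isoforms or gene copies.

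Binding of BLIMP1, a zinc-finger transcriptional regulator encoded by Prdm1, was mapped by ChIP-seq in mouse cells of 6 types. All groups were of the C57BL/6 strain, were homozygous for a knock-in that puts EGFP on the N terminus of BLIMP1, and were immunoprecipitated with a polyclonal antibody to GFP. The germ lineage was represented by PGC-like cells (PGCLC, made from embryonic stem cells through epiblast-like cells) and by primordial germ cells (PGC) of embryos. The d2 PGCLC were sorted for KIT after culture with LIF and BMP4 (2 replicates), and the d6 PGCLC after culture with LIF, BMP4, BMP8a, SCF and EGF, by SSEA1 and integrin beta-3 (2 replicates). The E12.5 PGC were sorted for SSEA1 (1 male and 1 female library, taken here as the pair of that cell type). The somatic types were E16.5 intestinal epithelium sorted for GFP and EPCAM, retinal photoreceptor precursors of postnatal day 4 sorted for GFP, and plasmablasts sorted for GFP and CD138 from B cells stimulated for 3 days with IL-4 and LPS, each with 2 replicates. There is no untagged or BLIMP1-deficient group among them.

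Oxidative phosphorylation takes place in the inner mitochondrial membrane. Complexes I and II pass electrons to ubiquinone, complex III passes them on to cytochrome c and complex IV to oxygen, and complex V uses the resulting proton gradient to make ATP. Most subunits and all assembly factors are encoded in the nucleus, and the genes are active in nearly all cell types.

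Each deposited list holds peak summits as single base positions, with no height or score. A gene had a summit in a library when one lay within 1 kb of either end of the gene, and counted as bound in a cell type if one was found in each library of the pair. Lists ranged from 7998 summits in intestinal epithelium replicate 1 to 76185 in d6 PGCLC replicate 1. That d6 library stood apart: the other d6 replicate held 15411 summits. A d6 PGCLC count therefore rests mainly on replicate 2, and the value from replicate 2 alone is given beside the counts over the 105 genes, complexes I and V and the pathway lists.

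BLIMP1 summits lay beside 79 of the 105 genes (75.2%) in plasmablasts, where 39.7% of all protein-coding genes were bound. In the other 5 cell types between 11 and 15 of the 105 were bound. These were 14 in d2 PGCLC (13.3%, against 8.41% of all genes) and 15 in d6 PGCLC (14.3%, against 9.72%). They were 11 in E12.5 PGC (10.5%, against 5.79%), 14 in intestinal epithelium (13.3%, against 7.29%) and 15 in photoreceptor precursors (14.3%, against 9.68%). With d6 PGCLC replicate 2 alone, 16 genes had a summit (15.2%, against 10.4% of all genes). The oxidative phosphorylation share was above the background in each cell type. In d6 PGCLC the margin was small when each summit was given only to its nearest gene end (9.52%, against 8.48%). No test was made of these shares, because genes are not replicates and each cell type has 2 libraries.

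With a window of 0.5 kb, 70 genes were bound in plasmablasts against a background of 31.9%. The counts were 10 in photoreceptor precursors (background 7.28%), 8 in d6 PGCLC (5.90%), 11 in intestinal epithelium (5.07%), 8 in E12.5 PGC (3.81%) and 9 in d2 PGCLC (5.30%). In d6 PGCLC the share of the 105 genes was then 7.62%. From d6 PGCLC replicate 2 alone it was 12.4% (13 genes), against 7.30% of all genes.

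Oxidative phosphorylation genes with a summit within 1 kb numbered 17 and 27 in the d2 PGCLC replicates, 56 and 16 in the d6 PGCLC replicates, and 17 in male and 20 in female E12.5 PGC. They numbered 19 and 33 in intestinal epithelium, 22 and 23 in photoreceptor precursors, and 83 and 89 in plasmablasts. In each of the 12 libraries the share of the 105 genes was above that of all genes, by 1.46-fold in d6 PGCLC replicate 2 to 2.05-fold in the male E12.5 PGC library. The plasmablast ratios, 1.85 and 1.87, lay within the range of the other libraries.

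**Figure D1:**
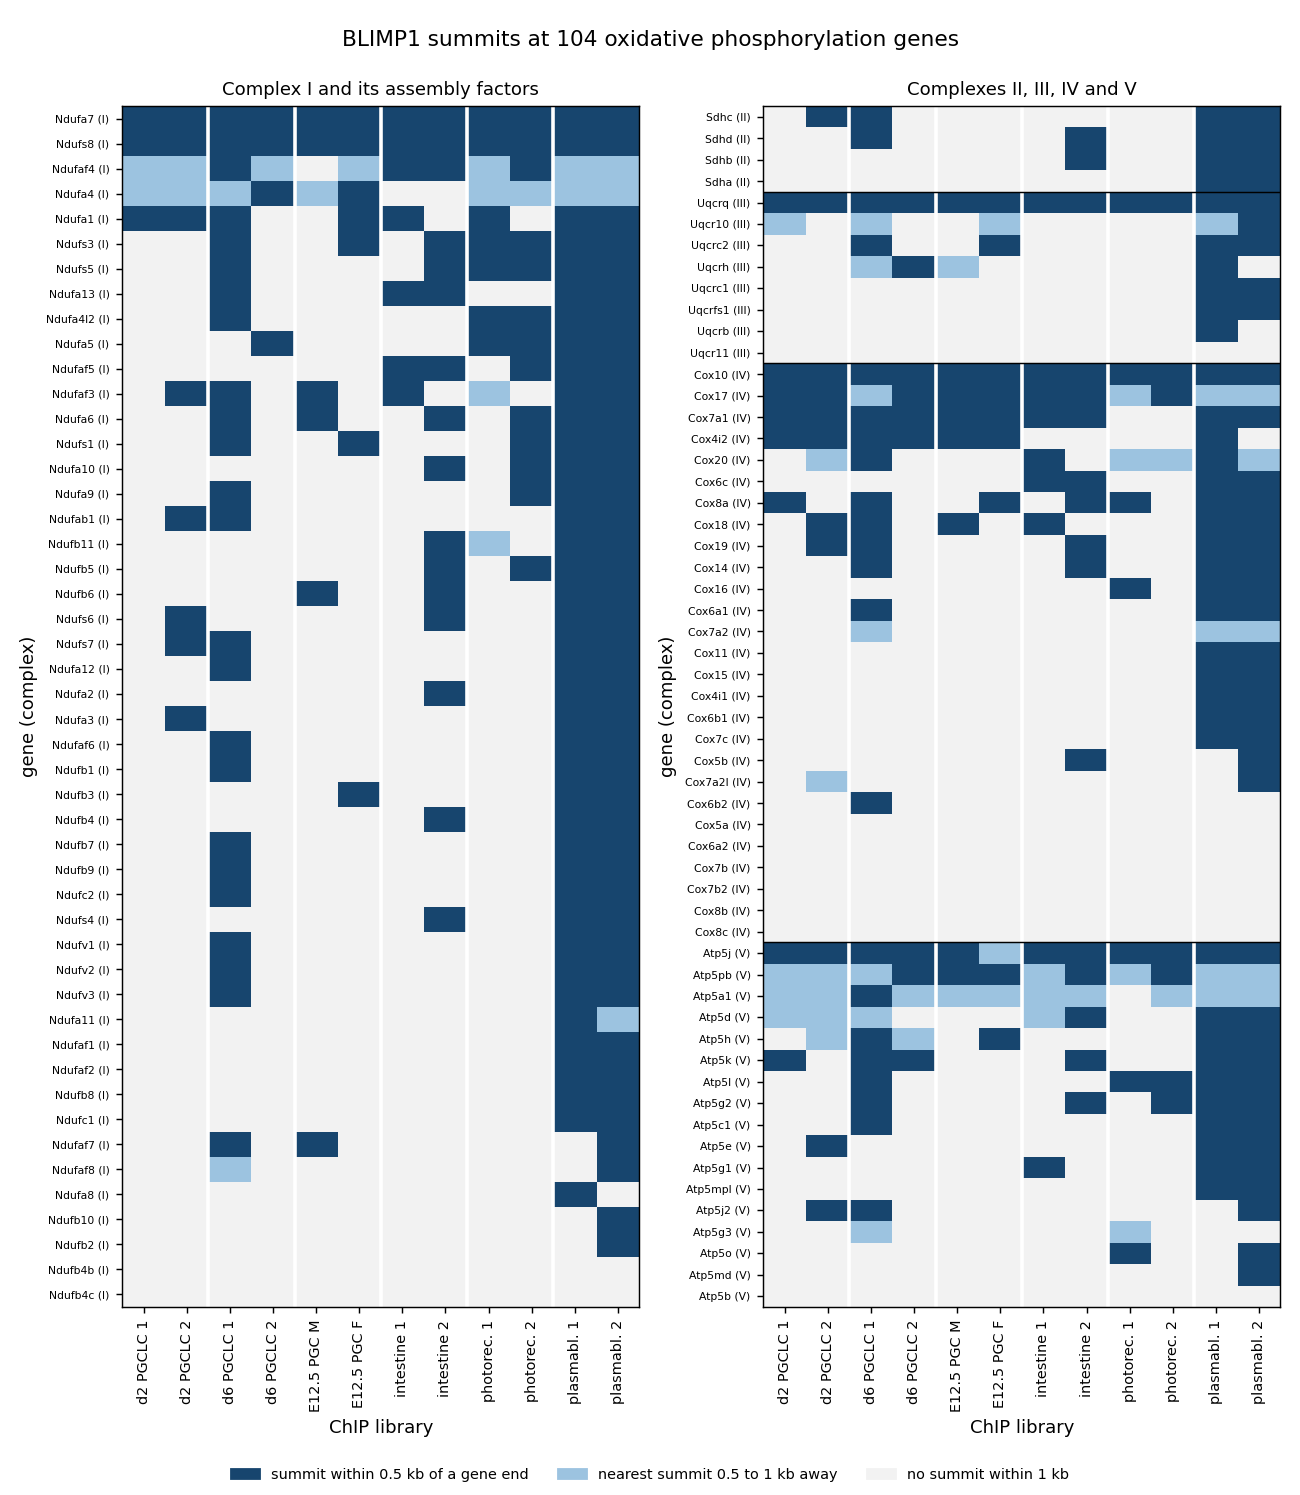
Nearest BLIMP1 summit to either gene end for 104 of the 105 genes (rows, with the complex in brackets) in each of the 12 ChIP libraries (columns). Dark blue marks a summit within 0.5 kb, light blue one between 0.5 and 1 kb away, and grey none within 1 kb. The plasmablast columns are filled for most genes, 7 genes are filled in all 12 libraries, and 10 in none.

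Most of the genes were bound in plasmablasts and nowhere else. This held for 55 of 105 (52.4%), against 25.7% of all genes. A further 12 genes were bound in 2 cell types (11.4%, against 7.21% of all genes), 2 in 3 (1.90%, against 3.01%) and none in 4 (against 1.90%). Binding in 5 was seen for 4 (3.81%, against 1.48%) and in 6 for 7 (6.67%, against 2.28%). Binding in at least 1 cell type was seen for 81 genes (77.1%, against 44.4% of all genes). Of the 26 genes bound in a cell type other than plasmablasts (24.8%, against 18.7%), 24 were bound in plasmablasts too (92.3%). Among all genes that share was 3063 of 4084 (75.0%). The median gene of the list had a summit in 3 of the 12 libraries, and the median of all genes in 1.

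Other housekeeping complexes gave similar plasmablast shares. Bound in plasmablasts were 79.5% of 78 mitochondrial ribosomal protein genes, 84.9% of 86 cytosolic ribosomal protein genes and 88.2% of 34 constitutive proteasome subunit genes. Outside plasmablasts the oxidative phosphorylation genes were bound more often than the mitochondrial ribosomal protein genes in each cell type (12.8% of the latter in photoreceptor precursors, 10.3% in d6 PGCLC, 7.69% in intestinal epithelium, 6.41% in d2 PGCLC and 5.13% for E12.5 PGC). They were bound less often than the proteasome genes (29.4%, 17.6%, 17.6%, 20.6% and 20.6% in the same order). The cytosolic ribosomal protein genes stood at 25.6%, 10.5%, 12.8%, 11.6% and 10.5% in that order. These differences between lists were not tested. The number bound in all 6 cell types was 7 of 105 for oxidative phosphorylation, 2 of 78 and 4 of 86 for the ribosomal lists and 3 of 34 for the proteasome.

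**Figure D2:**
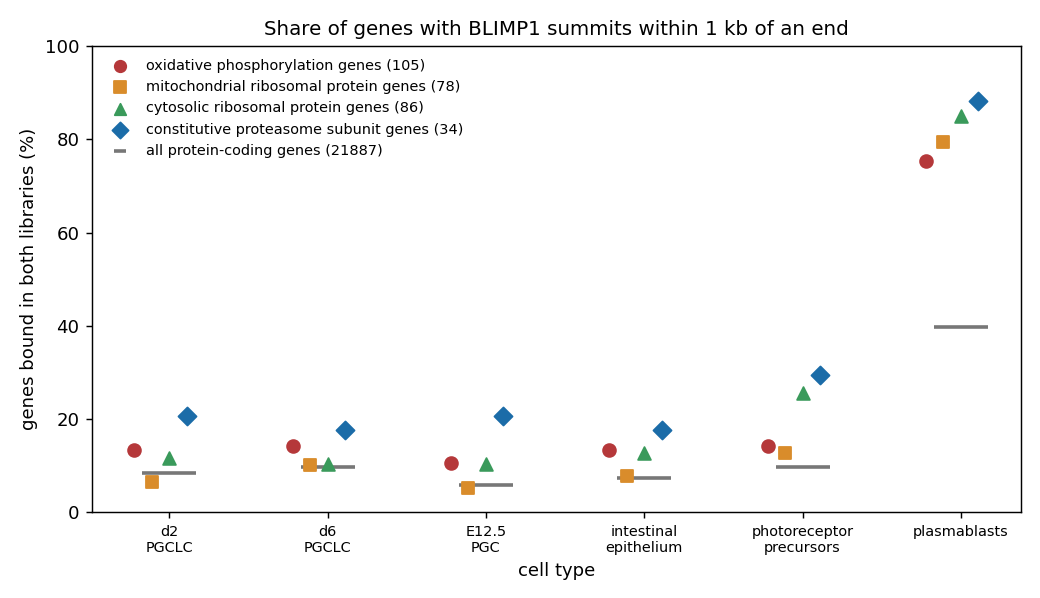
Percent of genes bound within 1 kb in both libraries (vertical axis) in each cell type for the 105 oxidative phosphorylation genes, 3 other lists of housekeeping complexes and all 21887 protein-coding genes (grey bars); list sizes are in brackets. All 4 lists lie between 75.2% and 88.2% in plasmablasts, where all genes stand at 39.7%.

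Genes bound in all 6 cell types numbered 7 of 105 (6.67%, against 2.28% of all genes). They were Ndufa7 and Ndufs8 of complex I, Uqcrq of complex III, Cox10 and Cox17 of complex IV assembly, and Atp5pb and Atp5j of complex V. By the definition of bound, each of the 7 had a summit within 1 kb in all 12 libraries. At 6 of them, all but Uqcrq, summits of all 12 libraries formed 1 chain with steps of at most 200 bp.

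Cox10 encodes the farnesyltransferase that makes heme O, a precursor of the heme A of complex IV. It lies on the minus strand at chr11:63962627-64079472 (gene ID 70383), and its RefSeq start site is position 64079472. The 12 summits lay 98 and 135 bp upstream of the start in the d2 PGCLC replicates, 86 and 88 bp in d6 PGCLC, and 65 and 63 bp in male and female E12.5 PGC. They lay 85 and 69 bp upstream in intestinal epithelium, 82 and 71 bp in photoreceptor precursors and 89 and 52 bp in plasmablasts. All libraries thus fell within a span of 83 bp (SD 21.4 bp, n = 12 libraries). The d2 PGCLC pair lay farthest upstream, and all other libraries lay within 52 to 89 bp, the range of the plasmablast pair. The 250 bases before the start site, in which all 12 positions lie, are shown because they hold the tightest shared position of these genes. The sequence is that of the gene strand, chr11:64079473-64079722 of GRCm38.p6 from RefSeq, and capitals mark GAAAG on either strand (CTTTC when read on this strand).
Cox10: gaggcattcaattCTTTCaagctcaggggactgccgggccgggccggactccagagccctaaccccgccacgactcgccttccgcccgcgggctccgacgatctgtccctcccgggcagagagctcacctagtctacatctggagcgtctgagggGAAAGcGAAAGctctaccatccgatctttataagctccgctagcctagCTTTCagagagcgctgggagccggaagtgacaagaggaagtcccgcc

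Ndufa7 encodes an accessory subunit of complex I. It lies on the plus strand at chr17:33824572-33838316 (gene ID 66416), and the end of Rps28, a cytosolic ribosomal protein gene, is 10 bp from its start. Relative to that start, the summits were at -11 and -114 in d2 PGCLC, 4 and 22 in d6 PGCLC, and -12 and -36 in E12.5 PGC. They were at -28 and -38 in intestinal epithelium, -22 and 25 in photoreceptor precursors, and -31 and -46 in plasmablasts. The libraries spanned 139 bp (SD 36.4 bp, n = 12), and the range of each cell type overlapped that of at least 1 other. When each summit was given only to its nearest gene end, Ndufa7 kept 1 bound cell type.

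Cox10 and Ndufa7 share a 7-base sequence, GCGAAAG, beneath these summits. It was picked out after the sequences had been read. The 29 bases around each match are shown so that the flanks can be compared. Both are written on the minus strand of GRCm38.p6, which is the gene strand for Cox10 (chr11:64079546-64079574) and the opposite strand for Ndufa7 (chr17:33824536-33824564). Capitals mark GCGAAAG.
Cox10: ctgaggggaaaGCGAAAGctctaccatcc
Ndufa7: gtctcgcgagaGCGAAAGtgaggcgtggt

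The nearest summit of each library lay between 0 and 47 bp from the Cox10 match, with a median of 13.5 bp over 12 libraries. At Ndufa7 the distances ran from 0 to 92 bp with a median of 15.0 bp. Cox19 also had GCGAAAG in its start window, with a summit within 100 bp in 1 library. In windows of 250 bases before to 50 after a start site, searched on both strands, GCGAAAG was present for 3 of the 85 oxidative phosphorylation genes with a window (3.53%) and for 2.16% of 17492 genes. The shorter GAAAG, which lies inside the other motifs, was present for 50 of 85 (58.8%) and for 58.6% of all genes. GTGAAAG was present for 2 of 85 (2.35%), Atp5k and Cox7b2, and for 4.57% of all genes. The oxidative phosphorylation windows therefore held GAAAG as often as start windows in general.

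Ndufs8 encodes an iron-sulfur subunit of complex I. It lies on the minus strand at chr19:3908863-3912774 (gene ID 225887). Its summits lay downstream of the start site, at 224 and 302 bp in d2 PGCLC, 315 and 193 bp in d6 PGCLC, 297 and 286 bp in E12.5 PGC, 357 and 298 bp in intestinal epithelium, 263 and 276 bp in photoreceptor precursors, and 314 and 350 bp in plasmablasts. The span was 164 bp, and the range of the d6 PGCLC pair overlapped that of every other cell type. Ndufs8 remained bound in all 6 cell types with a window of 0.5 kb, as did Cox10, Ndufa7 and Uqcrq.

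Atp5pb encodes a peripheral stalk subunit of the ATP synthase, at chr3:105942698-105959263 on the minus strand (gene ID 11950), 235 bp from Wdr77. The shared position lay 903 and 899 bp downstream of the start in d2 PGCLC, 905 and 898 bp in d6 PGCLC, and 922 and 858 bp in E12.5 PGC. It lay 885 and 923 bp downstream in intestinal epithelium, 865 and 800 bp in photoreceptor precursors and 912 and 870 bp in plasmablasts. These summits sit near the edge of the 1 kb window, and with 0.5 kb Atp5pb was bound in 1 cell type.

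Atp5j encodes another stalk subunit, coupling factor 6, at chr16:84827871-84835857 on the minus strand (gene ID 11957). Its summits spread over 441 bp (SD 153.9 bp), the widest of the 6 shared positions. They lay beyond the higher-coordinate end by 183 and 395 bp in d2 PGCLC, 192 and 444 bp in d6 PGCLC, 498 and 519 bp in E12.5 PGC, 78 and 242 bp in intestinal epithelium, 286 and 274 bp in photoreceptor precursors, and 146 and 84 bp in plasmablasts. The E12.5 PGC pair was farthest from the gene. This stretch lies inside Gabpa, which encodes a regulator of respiratory genes and whose lower-coordinate end lies 966 bp inside Atp5j. With the summits of both libraries required within 200 bp of each other, Atp5j was bound in 4 cell types.

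Cox17 encodes the copper chaperone that hands copper to complex IV assembly. It lies at chr16:38346983-38352763 (gene ID 12856), with no other protein-coding gene end within 5123 bp. One position, beyond the higher-coordinate end, carried summits of all 12 libraries: 727 and 737 bp from it in d2 PGCLC, 729 and 915 bp in d6 PGCLC, 746 and 733 bp in E12.5 PGC, 740 and 686 bp in intestinal epithelium, 728 and 728 bp in photoreceptor precursors, and 734 and 728 bp in plasmablasts. Of the 12 libraries, 10 lay between 727 and 746 bp, and the other two were d6 PGCLC replicate 2 and intestinal epithelium replicate 2. A second position at the lower-coordinate end, chr16:38346877-38347131, carried summits of 7 libraries and both libraries of d2 PGCLC and E12.5 PGC. Cox17 had 28 summits in 8 separate positions over both ends. With a window of 0.5 kb it was bound in 3 cell types. The strand of Cox17 was not used here.

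Uqcrq encodes a small subunit of complex III, at chr11:53427922-53430831 (gene ID 22272), with an end of Gdf9, an oocyte growth factor gene, 57 bp away. Distances from the higher-coordinate end were 59 and 11 bp in d2 PGCLC, 124 and 53 bp in d6 PGCLC, 80 and 80 bp in E12.5 PGC, 389 and 108 bp in intestinal epithelium, 47 and 37 bp in photoreceptor precursors, and 51 and 50 bp in plasmablasts. Only intestinal epithelium replicate 1 lay apart from the shared position of the other 11 libraries. Given to the nearest gene end alone, the summits left Uqcrq with 1 bound cell type.

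**Figure D3:**
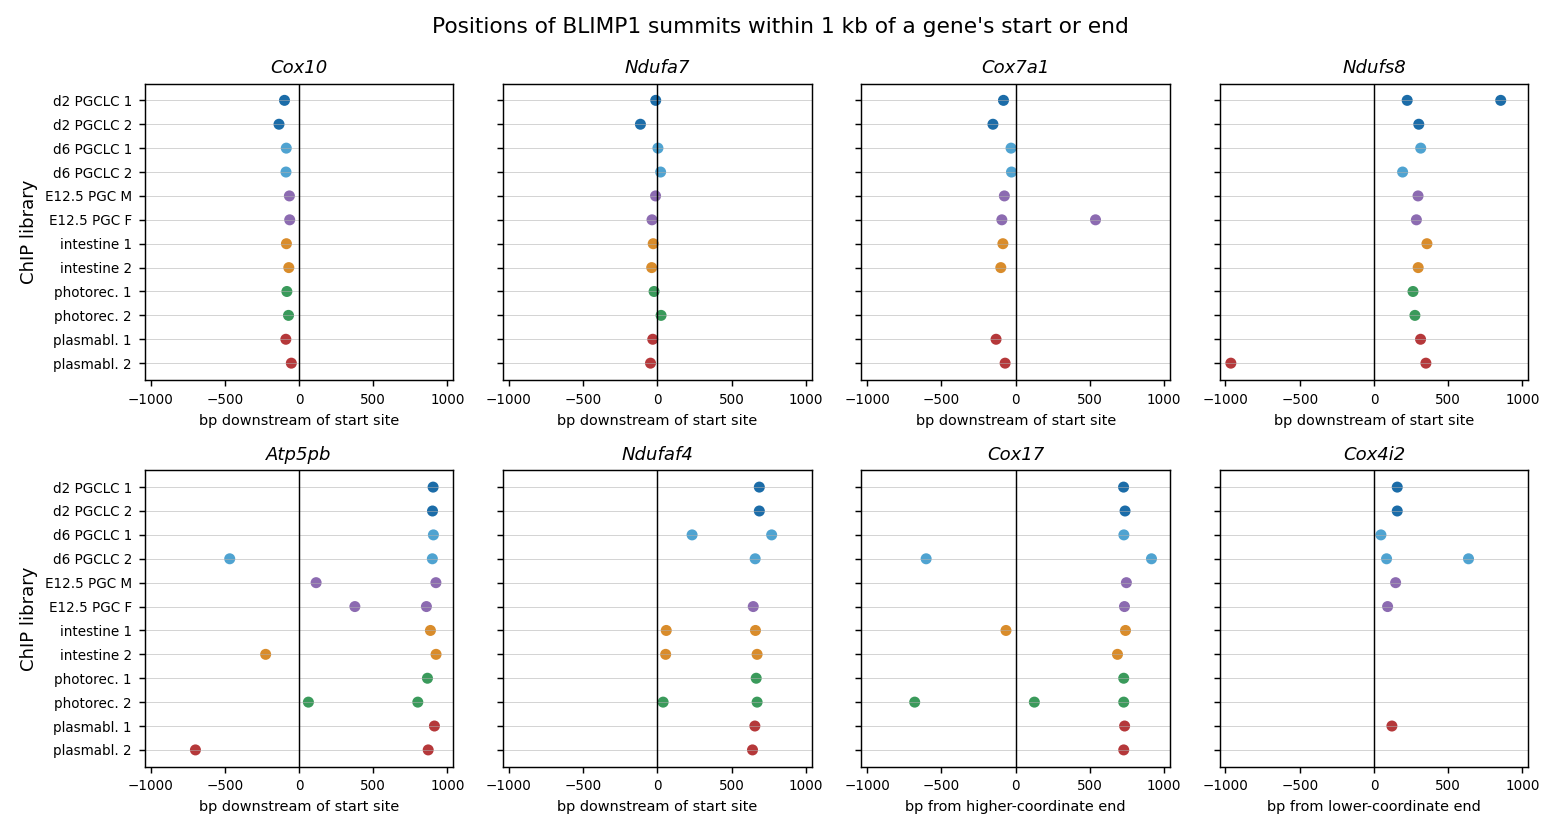
Position of every summit within 1 kb of the start site (first 6 panels) or of 1 gene end (Cox17 and Cox4i2, whose strand was not used) in the 12 ChIP libraries (rows, coloured by cell type), with 0 marked by a line. At Cox10, Ndufa7, Ndufs8, Atp5pb and Cox17 the 12 libraries share a position; Cox7a1 lacks the photoreceptor precursors and Cox4i2 the intestinal epithelium and photoreceptor precursors.

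Binding in exactly 5 cell types was seen for 4 genes (3.81%, against 1.48% of all genes). The missing cell type was photoreceptor precursors for Cox7a1 and Atp5a1, intestinal epithelium for Ndufa4 and E12.5 PGC for Ndufaf4. Cox7a1, the heart and skeletal muscle form of a complex IV subunit (gene ID 12865, chr7:30184171-30186030, plus strand), was not bound in photoreceptor precursors, where the nearest summits were 1018 and 33689 bp away. Elsewhere its summits lay upstream of the start by 82 and 153 bp in d2 PGCLC, 31 and 28 bp in d6 PGCLC, 76 and 93 bp in E12.5 PGC, 86 and 100 bp in intestinal epithelium, and 132 and 71 bp in plasmablasts. The 10 libraries shared 1 position. The 250 bases before the start, chr7:30183921-30184170 on the plus strand of GRCm38.p6 from RefSeq, are shown because this isoform gene kept its 5 bound cell types under each alternative run. Capitals mark GAAAG on the opposite strand (read here as CTTTC), which had a summit within 100 bp in 10 libraries.
Cox7a1: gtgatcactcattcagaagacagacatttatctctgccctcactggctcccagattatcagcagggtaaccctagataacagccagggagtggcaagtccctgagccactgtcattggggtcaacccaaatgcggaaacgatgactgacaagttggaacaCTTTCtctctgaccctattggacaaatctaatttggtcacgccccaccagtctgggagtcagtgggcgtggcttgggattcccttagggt

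Ndufa4, a respiratory chain subunit named for complex I and since assigned to complex IV (gene ID 17992, chr6:11900372-11907450), was not bound in intestinal epithelium, where the nearest summits were 18426 and 18392 bp away. In the other 10 libraries a summit lay between 492 and 672 bp beyond its start, nearer to Phf14, and with nearest-gene assignment it had 0 bound cell types. Ndufaf4, a complex I assembly factor (gene ID 68493, chr4:24898083-24905001), missed only the male E12.5 PGC library, whose nearest summit was 32152 bp away. The other 11 libraries had a summit 641 to 770 bp downstream of its start. Atp5a1, the alpha subunit of the ATP synthase (gene ID 11946), missed only photoreceptor precursor replicate 1, with summits of the other 11 libraries 758 to 863 bp inside its lower-coordinate end. For Ndufaf4 and Atp5a1 the missing cell type thus rests on 1 library each. Neither was bound in more than 1 cell type with a window of 0.5 kb. An end of Haus1 lies 117 bp from Atp5a1, and with nearest-gene assignment Atp5a1 had 0 bound cell types.

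Cox4i2, the complex IV isoform known for its role in lung and in oxygen sensing (gene ID 84682, chr2:152753916-152765039), was the 1 gene of the list bound in each of the 3 germ-lineage types but no somatic one (0.952%, against 0.366% of all genes). Its summits lay 157 and 157 bp inside the lower-coordinate end in d2 PGCLC, 47 and 85 bp in d6 PGCLC and 146 and 92 bp in E12.5 PGC. Plasmablast replicate 1 had one at 121 bp, in the same position, while the nearest of replicate 2 was 3186 bp away. In intestinal epithelium the nearest were 12105 and 12391 bp away, and in photoreceptor precursors 39774 and 39769 bp. Plasmablasts were thus split between libraries, and from replicate 1 alone Cox4i2 would be bound in 4 cell types. Fisher's exact test of 3 germ-lineage against 3 somatic types, two-sided, gave p = 0.10 for Cox4i2, the smallest this design allows. The value was fixed by the split for which Cox4i2 was named, so it adds no evidence. The test also takes the 3 cell types of a group as replicates, which they are not. Over all genes 205 reached that p, the Benjamini-Hochberg adjusted value was 1, and no gene was lower. None of the 105 genes was bound in the 3 somatic types without a germ-lineage type (background 0.571%).

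Complex I was the most widely bound complex in plasmablasts after complex II. Of its 49 genes, 41 were bound in plasmablasts, 8 in photoreceptor precursors, 3 in E12.5 PGC, 4 in d6 PGCLC, 5 in intestinal epithelium and 5 in d2 PGCLC. In d6 PGCLC this was 8.16%, below the 9.72% of all genes, and in E12.5 PGC 6.12%, close to the 5.79% of all genes. The share was 83.7% in plasmablasts (39.7% of all genes) and 16.3% in photoreceptor precursors (9.68%). It was 10.2% in intestinal epithelium (7.29%) and 10.2% in d2 PGCLC (8.41%). Replicate 2 of d6 PGCLC alone had 5 of the 49 (10.2%, against 10.4%). The plasmablast count held 34 of its 38 subunits. Among genes bound in 2 cell types, Ndufs3 and Ndufs5, both subunits, and Ndufa5 and the isoform Ndufa4l2 were bound in photoreceptor precursors and plasmablasts. The subunit Ndufa13 and the assembly factor Ndufaf5 were bound in intestinal epithelium and plasmablasts, and the subunit Ndufa1 in d2 PGCLC and plasmablasts. Near-identical copies of Ndufb4, named Ndufb4b and Ndufb4c, had no summit in any library. How reads shared with Ndufb4 were placed is not given in the sources used here.

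Complex II, succinate dehydrogenase, was bound in plasmablasts alone (all genes: 39.7% there, 5.79% to 9.72% in the other types). All 4 of its subunit genes were: Sdha, the flavoprotein, at 107 and 178 bp from a gene end in the plasmablast replicates; Sdhb, the iron-sulfur subunit, at 137 and 45 bp; Sdhc, a membrane anchor, at 302 and 216 bp; and Sdhd, the other anchor, at 122 and 24 bp. Sdha had no summit within 1 kb in the other 10 libraries. Single libraries had one at Sdhb (intestinal epithelium replicate 2, 30 bp), Sdhc (d2 PGCLC replicate 2, 190 bp, and d6 PGCLC replicate 1, 104 bp) and Sdhd (d6 PGCLC replicate 1, 233 bp, and intestinal epithelium replicate 2, 489 bp).

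Complex III was bound at 5 of 8 genes in plasmablasts (62.5%, against 39.7% of all genes). Besides Uqcrq these were the core proteins Uqcrc1 (9 and 38 bp) and Uqcrc2 (66 and 215 bp), the Rieske iron-sulfur protein gene Uqcrfs1 (60 and 110 bp) and Uqcr10 (688 and 145 bp). Uqcrb had a summit in plasmablast replicate 1 at 63 bp and none within 1 kb in the other 11 libraries. Uqcr11 had none in any. Uqcrh, the hinge protein gene, was the 1 gene of the list bound in a single cell type other than plasmablasts. That was d6 PGCLC, at 565 bp in replicate 1 and 401 bp in replicate 2, on different sides of the gene end. Single libraries also had a summit there, plasmablast replicate 1 at 62 bp and the male E12.5 PGC library at 510 bp. The d6 PGCLC call did not hold under other settings. Uqcrh had 0 bound cell types with a window of 0.5 kb, with nearest-gene assignment, and with summits of both libraries within 200 bp. With a window of 2 kb Uqcrh was bound in all 6 cell types, when 7 libraries had their nearest summit between 1548 and 1749 bp and the female E12.5 PGC library at 1007 bp.

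Complex IV was bound at 17 of 27 genes in plasmablasts (63.0%, against 39.7% of all genes). In each other cell type it was bound at 3 or 4 genes (11.1% to 14.8%, against 5.79% to 9.72%). In plasmablasts the counts differed by role. All 9 assembly factors were bound in plasmablasts: Cox10 and Cox15 for heme, Cox11, Cox17 and Cox19 for copper, and Cox14, Cox16, Cox18 and Cox20 for the core subunits. Of the 11 subunits, 7 were bound in plasmablasts (63.6%), 1 in intestinal epithelium (Cox6c, at 225 and 89 bp) and 0 in the other 4 cell types. Outside plasmablasts, 0 or 1 of 11 is near the share of all genes. These counts use gene ends: measured from start sites, known for 9 of the 11, Cox7a2 was bound in all 6 cell types and Cox5a in photoreceptor precursors and plasmablasts. From start sites 6 of these 9 subunits and 7 of 7 assembly factors were bound in plasmablasts, where 41.9% of all genes were. Of 7 isoform genes in complex IV, Cox7a1 and Cox4i2 were bound in some cell type (28.6%, against 44.4% of all genes). Across all complexes, the isoforms and copies had the lowest plasmablast share, 2 of 10 (20%), against 62 of 78 subunits (79.5%) and 15 of 17 assembly factors (88.2%). All genes stood at 39.7%. The 2 isoform genes were Cox7a1 and Ndufa4l2. These shares come from few genes and were not tested.

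Complex V was bound at 12 of 17 genes in plasmablasts, 3 in photoreceptor precursors, 3 in E12.5 PGC, 5 in d6 PGCLC, 4 in intestinal epithelium and 4 in d2 PGCLC. The shares were 70.6%, 17.6%, 17.6%, 29.4%, 23.5% and 23.5%, against 39.7%, 9.68%, 5.79%, 9.72%, 7.29% and 8.41% of all genes. Replicate 2 of d6 PGCLC alone also had 5 (29.4%, against 10.4%). With a window of 0.5 kb the counts fell to 10, 2, 1, 2, 1 and 1 in the same order. All genes then stood at 31.9%, 7.28%, 3.81%, 5.90%, 5.07% and 5.30%. Outside plasmablasts the complex V shares were then between 5.88% and 11.8%. Atp5k and Atp5h were bound in d6 PGCLC and plasmablasts, and Atp5l in photoreceptor precursors and plasmablasts. Atp5b, the catalytic beta subunit gene, had no summit within 1 kb in any library, with the nearest plasmablast summits at 1063 and 1484 bp from an end. Atp5d, the delta subunit gene (gene ID 66043, chr10:80138698-80145828), was bound in d2 PGCLC, intestinal epithelium and plasmablasts by distance from the gene ends. Its RefSeq start sites, one of them at 80142275, lie inside the gene as tabulated. Each of the 12 libraries had a summit between -26 and 21 bp of such a start, so that measured from start sites Atp5d was bound in all 6 cell types.

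**Figure D4:**
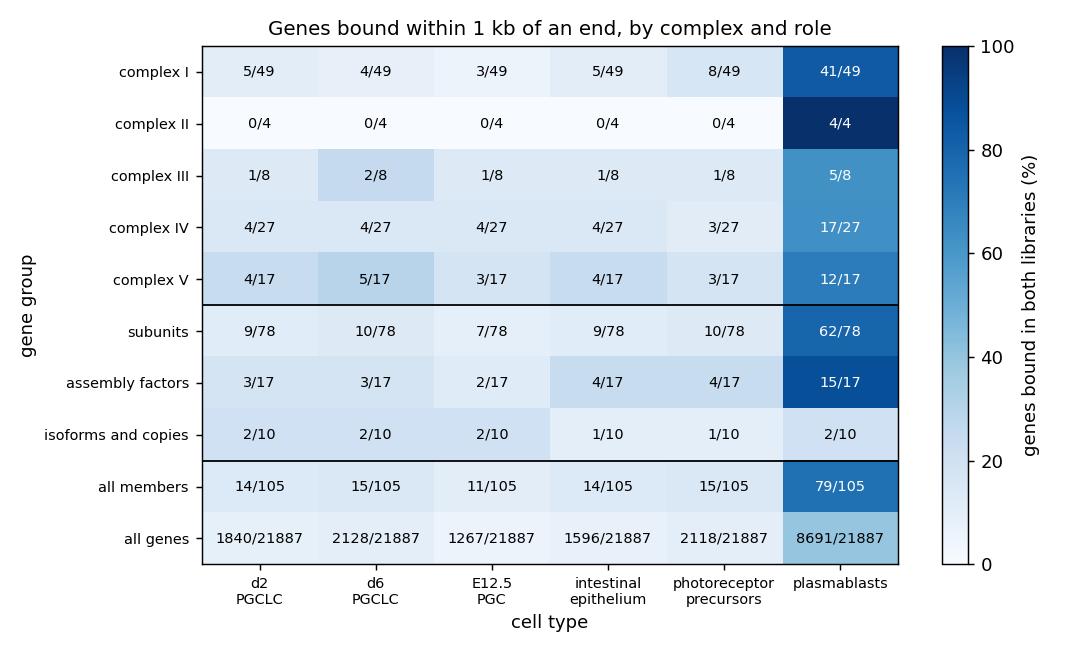
Number of genes bound within 1 kb in both libraries, of the number in the group, by complex, by role and for all genes (rows) in each cell type (columns); the colour gives the percent. Complex II is bound in plasmablasts alone, at 4 of 4 genes, and isoforms and copies have 2 of 10 bound there.

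Measured from start sites, Cox7a2 was also bound in all 6 cell types. This complex IV subunit gene (chromosome 9, start at 79759853) had a summit 82 to 236 bp downstream of its start in each of the 12 libraries, more than 4 kb from the gene ends. A start site was at hand for 85 of the 105 genes. For the 76 of these whose start lies over 2 kb from the other end, binding at the start end was counted apart from that at the other end. At the start end 62 were bound in plasmablasts, 16 in photoreceptor precursors, 8 in E12.5 PGC, 11 in d6 PGCLC, 10 in intestinal epithelium and 11 in d2 PGCLC. The shares were 81.6%, 21.1%, 10.5%, 14.5%, 13.2% and 14.5%. Among 15222 genes treated alike they were 46.6%, 11.6%, 6.50%, 10.5%, 8.44% and 9.05%. Replicate 2 of d6 PGCLC alone had 12 (15.8%, against 11.4%). At the other end 0 were bound in the 5 cell types other than plasmablasts and 4 in plasmablasts (5.26%). All genes were bound there at 3.94% in plasmablasts and 0.683% to 1.46% elsewhere, so these counts are near the background. In plasmablasts the median distance from start to nearest summit, among genes with one within reach, was 82 and 102 bp for the list in the 2 replicates and 153 and 140 bp for all genes.

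A set of 10 genes, 9.52% of the list against 40.3% of all genes, had no summit within 1 kb in any library. They were Atp5b, Cox5a, Cox7b and Uqcr11, which encode subunits, and Cox6a2, Cox7b2, Cox8b, Cox8c, Ndufb4b and Ndufb4c, which are isoforms or copies. Cox6a2 and Cox8b are known as heart and skeletal muscle forms, and Cox7b2 and Cox8c as testis forms. For Cox5a the start site lies inside the tabulated gene, and 6 libraries had a summit 11 to 237 bp from it: both of photoreceptor precursors (144 and 11 bp), both of plasmablasts (114 and 68 bp), d6 PGCLC replicate 1 and intestinal epithelium replicate 1. From start sites 6 of the 85 genes had no summit within 1 kb in any library. A further 14 genes had a summit in 1 of the 2 plasmablast libraries. With either plasmablast library 88.6% of the list and 48.4% of all genes had a summit, against 75.2% and 39.7% with both.

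Oxidative phosphorylation genes were shorter than other genes, with a median length of 7345 bp against 17169 bp, and more of them had a neighbour. Another protein-coding gene end lay within 1 kb of 58 of the 105 (55.2%), against 24.8% of all genes and 56.4% of the mitochondrial ribosomal protein genes. Among the 7 bound in all cell types it did for 5. A summit there counts for both genes. In plasmablasts the genes with such a neighbour were bound at 79.3% and those without at 70.2%, and for all genes the shares were 63.5% and 31.9%. In d2 PGCLC they were 17.2% and 8.51%, against 12.0% and 7.21%. In photoreceptor precursors they were 15.5% and 12.8%, against 14.9% and 7.96%. The d6 PGCLC shares were 17.2% and 10.6%, against 14.4% and 8.16%. Those of E12.5 PGC were 13.8% and 6.38%, against 9.16% and 4.68%. Intestinal epithelium had 18.97% and 6.38%, against 12.4% and 5.62%. The list share was the higher in both groups of each cell type, but in some by little. With a neighbour, the photoreceptor precursor share (9 of 58) was near that of all genes. Without a neighbour, the list counts outside plasmablasts were small, from 3 to 6 of 47. Those for d2 PGCLC (4 genes), intestinal epithelium (3 genes) and E12.5 PGC (3 genes) gave shares near those of all genes. Whether neighbours account for the difference between the list and all genes was not tested.

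Genes that work with the respiratory chain but fall outside the naming rule were bound in plasmablasts at 30 of 34 for assembly factors and electron carriers, 10 of 13 for the tricarboxylic acid cycle and 10 of 16 for regulators of respiratory genes. The plasmablast share of all genes was 39.7%. In photoreceptor precursors, intestinal epithelium, E12.5 PGC, d6 PGCLC and d2 PGCLC, in that order, the assembly factors and carriers were bound at 5, 7, 4, 3 and 3 genes. Their shares were 14.7%, 20.6%, 11.8%, 8.82% and 8.82%. All genes stood at 9.68%, 7.29%, 5.79%, 9.72% and 8.41%, so the d6 and d2 PGCLC shares were near the background. The cycle genes were bound at 1, 0, 1, 1 and 1 (7.69% for 1 gene), and the regulators at 2, 1, 0, 3 and 0 (6.25% for 1 gene). From d6 PGCLC replicate 2 alone the counts were 6, 2 and 3 for these lists (17.6%, 15.4% and 18.8%, against 10.4% of all genes). Among assembly factors, Ttc19, which acts on complex III, was bound in all 6 cell types, Coa5 of complex IV and Sdhaf1 of complex II in 5, and Bcs1l of complex III in 3. The nearest summits at Ttc19 lay 314 to 995 bp away, and with a window of 0.5 kb it was bound in no cell type. Of the cycle, Suclg1, a subunit of succinate-CoA ligase, was bound in 4, the dehydrogenase component Dld in 2, and Dlst in plasmablasts. Of the regulators, the nuclear receptor gene Esrra was bound in 3 cell types, and Pprc1, Ppargc1b and Tfb1m in 2 each.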

How the data were processed

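The authors used MACS2 2.1, Bowtie 1.1.2, cutadapt 1.7.1 and Trim Galore 0.3.7 with build mm10, per the submitters' processing notes. The deposited lists hold 1 chromosome and position per summit and library. The depth of reads, the control and threshold of peak calling, and the base from which positions count (0 or 1) are not given in the sources used here. Positions may be off by 1 bp. A longer list may come from deeper sequencing or another threshold. Cell numbers also differed within pairs. In units of 1e5 cells, d2 PGCLC replicates 1 and 2 had 3.0 and 30.0, and d6 PGCLC replicates 1 and 2 had 3.0 and 10.0. The pairs of the other cell types were closer. Whether cell number bears on list length was not tested. The input library was not analysed here.

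Gene ends came from RefSeq (GRCm38.p6, the coordinates of mm10), as did start windows, available for 85 of the 105 genes. Bound means a summit within 1 kb of either gene end in each of the 2 libraries of a cell type. Positions were made by chaining summits at most 200 bp apart. The distance code (Python 3.11.15, numpy 2.4.6, pandas 2.3.3, scipy 1.17.1) was tested on simulated data. The labels do not say whether replicates are separate cultures or animals.

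The genes, the gene lists, the motifs GAAAG and GTGAAAG and the naming rule were chosen with earlier results of these data known. Named were genes bound in 6 or 5 cell types, in all germ-lineage or all somatic types, in exactly 1 type other than plasmablasts or in no library, those of complexes II and III, and up to 4 per pathway list. Some of these are not reported here. Further genes, those bound in 2 cell types among them, GCGAAAG, Cox7a2 and the start-site values of Cox5a were chosen after their values were seen. Alternatives were other windows, either library, each library alone, the start end, the nearest gene, summits within 200 bp of each other, and leaving out assembly factors.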

Additional observations from a re-analysis of the deposited data

How the results depend on the processing

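Bound counts out of 105 moved by more than 1.5 times under these settings. With a window of 0.5 kb, 4 genes were bound in all 6 cell types, 8 in d6 PGCLC and 9 in d2 PGCLC. With 2 kb, 23 were bound in d2 PGCLC. With a summit in either library, the counts were 12 in all 6, 30 in photoreceptor precursors, 26 in E12.5 PGC, 57 in d6 PGCLC, 38 in intestinal epithelium and 30 in d2 PGCLC. The shares of all genes moved too, to 4.79%, 17.1%, 13.4%, 36.6%, 19.2% and 18.3% in that order. With each summit given only to the nearest gene end, 7 were bound in E12.5 PGC (6.67%, against 4.9% of all genes). The other counts moved less under that setting. Their shares were 9.52% in d6 PGCLC (8.48% of all genes), 9.52% in d2 PGCLC (7.32%) and 10.5% in photoreceptor precursors (8.19%). They were 11.4% in intestinal epithelium (6.09%) and 61% in plasmablasts (34.9%). Why the counts moved was not tested. Leaving out 1 library at a time gave 7 to 8 in all 6, 83 to 89 in plasmablasts, 22 to 23 in photoreceptor precursors, 17 to 20 in E12.5 PGC, 16 to 56 in d6 PGCLC (56 from replicate 1 alone), 19 to 33 in intestinal epithelium and 17 to 27 in d2 PGCLC. Leaving a library out can only keep or raise a count, because the cell type then needs a summit in 1 library alone. In plasmablasts the other settings gave between 64 and 93. The setting with start sites alone covers 85 genes and that without assembly factors 88. Of 14 named genes, the number of bound cell types moved for 8 with 0.5 kb, 5 with nearest gene and 5 with either library.

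No paired analysis was possible because the lists hold positions only and no test between libraries was made. The lists carry no read depth, so a missing summit does not show that binding was absent.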

Other observations

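The respiratory chain genes that are not in the nucleus lie on the mitochondrial chromosome. Summits listed on that chromosome numbered 12 in d2 PGCLC replicate 2, 5 in each intestinal epithelium replicate, 4 in d6 PGCLC replicate 2, 4 in plasmablast replicate 1 and 1 in d2 PGCLC replicate 1. The other 6 libraries listed 0. In d2 PGCLC, d6 PGCLC and plasmablasts the 2 libraries differed. The places of these summits relative to the mitochondrial genes were not examined, and the input library was not analysed. The counts therefore do not show binding at those genes.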
